A study of Homo sapiens with 18 samples.

Results

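The genes followed here are the SR splicing factors, taken as the rows of the count table named SRSF1, SRSF2, SRSF3, SRSF4, SRSF5, SRSF6, SRSF7, SRSF9, SRSF10 and SRSF11. They are 10 of 26485 gene symbols, and all 10 were among the 12832 genes that passed the filter on low counts (CPM, read counts scaled to the library total, above 1 in at least 3 libraries). RNAseq was measured in SW620 cells, an established line from a human colon cancer, in 18 libraries that fell into 6 groups of 3. Cells carried a scramble siRNA or an siRNA against Lonp1 (siLonp1), the protease of the mitochondrial matrix. Within each siRNA arm they were kept at 37 °C (Ctrl), heated to 42 °C for 1 h (HS), or heated to 42 °C for 1 h and returned to 37 °C for 1 h (HS+REC). All groups are 1 cell line, and all controls carry a transfected siRNA. SRSF8 and SRSF12 are outside the list. SRSF12 had between 0 and 2 counts in a library, and SRSF8 is counted below among the related proteins.

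SR proteins carry an RNA recognition motif and a tail rich in arginine and serine. They bind exons of a pre-mRNA, bring the spliceosome to neighbouring splice sites, and several of them go on to export and translation. Their tails are phosphorylated by the SRPK and CLK kinases, and heat stress is known for removing phosphate from SR proteins and for moving splicing factors within the nucleus. Many SR genes also control their own mRNA through exons or introns that bring in an early stop codon, after which the transcript is broken down by nonsense-mediated decay.

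In the GENCODE 44 annotation of hg38, all 10 genes had at least 1 transcript annotated as a target of nonsense-mediated decay, against 48.0% of the 11333 protein-coding genes tested that had an entry. A retained-intron transcript was annotated for 9 of the 10, SRSF6 being the exception, against 61.7% of those genes. An internal exon that holds the early stop codon and overlaps no exon of the gene's protein-coding transcripts was found for 6 members, with 11 such exons in all. The deposited counts are sums over a gene, so reads from transcripts with and without these exons were added together, and the shares of the transcripts were not measured. For this reason 1 such exon is shown for each of the 5 of these genes that passed a test below, which SRSF9 did not, as an example where a gene has several. Each is printed from the first base of the exon to the stop codon, 5′ to 3′ on the strand of the gene, with the stop codon in capitals. The SRSF3 stretch lies at chr6:36599821-36599854 on the plus strand, that of SRSF4 at chr1:29166009-29166064 on the minus strand, that of SRSF6 at chr20:43459153-43459304 on the plus strand, that of SRSF7 at chr2:38749319-38749346 on the minus strand, and that of SRSF11 at chr1:70231859-70231908 on the plus strand.
SRSF3: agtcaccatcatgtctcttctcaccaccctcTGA
SRSF4: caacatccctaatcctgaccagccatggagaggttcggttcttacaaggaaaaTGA
SRSF6: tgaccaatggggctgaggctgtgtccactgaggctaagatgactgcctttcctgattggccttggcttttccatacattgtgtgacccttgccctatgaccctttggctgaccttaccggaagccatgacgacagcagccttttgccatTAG
SRSF7: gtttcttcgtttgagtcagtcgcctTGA
SRSF11: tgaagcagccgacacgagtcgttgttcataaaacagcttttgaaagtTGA

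The genes lie on 7 chromosomes, with SRSF4, SRSF10 and SRSF11 on chromosome 1 and SRSF1 and SRSF2 on chromosome 17. SRSF2 spans 76734115 to 76737333 on chromosome 17 (minus strand), SRSF6 43457893 to 43466046 on chromosome 20 (plus strand), SRSF7 38743599 to 38751494 on chromosome 2 (minus strand), and SRSF11 70205682 to 70253052 on chromosome 1 (plus strand). SRSF4 spans 29147743 to 29181900 on chromosome 1 (minus strand) and SRSF5 69726900 to 69772005 on chromosome 14 (plus strand). Exons of SRSF2 overlap those of MFSD11 on the opposite strand over 823 bp, and exons of SRSF9 overlap those of GATC on the opposite strand over 1725 bp. The strand setting of the counting is not given in the sources used here, so reads within these overlaps could be assigned to either gene. Exons of SRSF1 and SRSF6 also overlap, over 1890 and 654 bp, those of unnamed protein-coding genes on the same strand of this annotation, and whether the authors' annotation holds these genes is not given in the sources used here. MFSD11 was at 17.3 ± 0.484 CPM (SD, n = 3) in Ctrl scramble, where SRSF2 was at 545 ± 10.9 CPM. GATC was at 73.8 ± 1.42 CPM, where SRSF9 was at 145 ± 2.49 CPM. Promoter sequence from RefSeq was matched to 9 of the 10 genes. The inverted pair of heat shock element units (GAANNTTC or TTCNNGAA, on both strands) occurred in the 250 upstream bases of 0 of the 9 genes, against 11.6% of 34943 promoters. It occurred in 2 of the 4 heat shock check genes and not in BAG3 or HSPH1, so its absence from this window says little.

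Library totals ran from 30815860 to 47279297 counts. LONP1 was the check of the silencing, and 9.26% of its CPM remained at 37 °C, 5.48% after HS and 12.4% after HS+REC. The 4 heat shock genes taken as a check rose in both siRNA arms, among them BAG3, a co-chaperone of HSP70, by 5.37 on the log2 scale after HS in scramble. Of 8 markers of colon epithelium, 7 were above 1 CPM in every library, and KRT20 was between 0.256 and 1.21 CPM. Of 7 markers of fibroblasts, endothelium and blood, COL1A1 alone was above 1 CPM in every library, and COL1A2, PTPRC and CD3E reached at most 0.0515, 0.0735 and 0.0483 CPM. The summed CPM of these 7, nearly all of it COL1A1 (8.44 to 32.8 CPM over the libraries), moved with heat, at 8.98 to 10.98 in Ctrl scramble, 16.5 to 20.9 in HS scramble and 30.3 to 31.8 in HS+REC scramble, and its part in the changes below was not tested. In siLonp1 the same sum was 9.76 to 10.8 in Ctrl, 14.4 to 20.3 in HS and 32.2 to 34.7 in HS+REC.

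At 37 °C with scramble siRNA the 10 genes together held 3445 ± 43.2 CPM. Per kilobase of the canonical transcript, SRSF2 was highest at 289 CPM per kb, followed by SRSF5 (157), SRSF7 (150.0), SRSF3 (141), SRSF6 (129) and SRSF9 (126). SRSF1 had 97.5 CPM per kb, SRSF4 49.0, SRSF11 34.8 and SRSF10 31.1. The libraries of SRSF7 (142.3 to 153.9 CPM per kb) and SRSF3 (137.3 to 143.7) overlapped, so their order is not resolved, whereas SRSF5 (156.8 to 158.4) was above both in all 3 libraries. These lengths come from GENCODE and not from the authors' annotation, and the order is a description only.

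**Figure D1:**
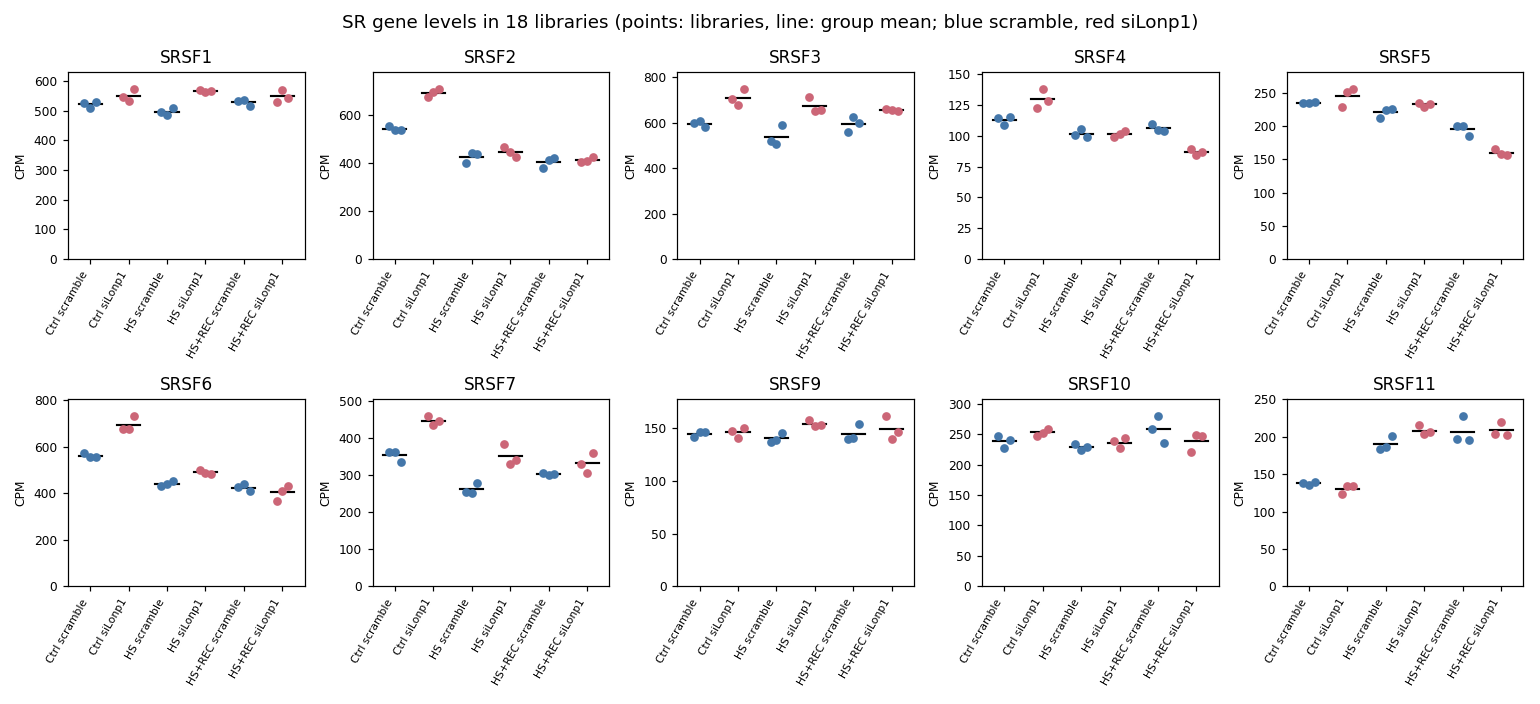
Level of each SR gene in every library, in CPM after TMM scaling on a linear axis from 0, with 1 panel a gene, 3 points a group and a line at the group mean (blue scramble, red siLonp1). SRSF2, SRSF6 and SRSF7 were lower after HS than in Ctrl in both arms, SRSF11 was higher, and the group means of SRSF1, SRSF9 and SRSF10 spanned at most 0.19 on the log2 scale.

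The first comparison asks what 1 h at 42 °C did to SR mRNA in cells with scramble siRNA. SRSF2, SRSF4, SRSF6 and SRSF7 fell and SRSF11 rose, and the other 5 did not pass edgeR's quasi-likelihood test over all genes (Benjamini-Hochberg adjusted p of 0.05 or less). Among all genes tested, 17.3% fell and 18.6% rose at this limit, so that the share of SR genes that fell was above the background and the share that rose was not. The members were chosen with results of these data known, and their count as a list was not tested. The libraries did not overlap for 7 of the 10 genes (6 below, 1 above), where this held for 25.3% of all genes below and 25% above. The median log2 fold change was -0.12 over the 10 genes and -0.01 over all genes. CPM are shares of the counts in bulk RNA, in which fewer cells of a type and less RNA per cell cannot be told apart. No SR gene passed the study's added limit of a 2-fold change, in this or any other contrast. Of all genes, 3.3% passed it for HS in scramble and 4.57% in siLonp1, 4.46% and 5.71% for HS+REC, 1.9% and 2.57% for HS+REC against HS, 4.17%, 4.17% and 4.18% for siLonp1 in Ctrl, HS and HS+REC, and 0.14% and 0.109% for the interactions with HS and HS+REC.

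SRSF7, which takes part in splicing and in mRNA export, showed the largest fall. It was at 363, 362 and 335 CPM in Ctrl and at 255, 253 and 279 CPM in HS. The 3 heated libraries were all below the 3 controls, a log2 fold change of -0.43 with a standard error (SE) of 0.07 and an adjusted p of 1.27e-05. SRSF2, which binds exonic enhancers and also acts in release of paused RNA polymerase, went from 558, 537 and 540.5 CPM to 403, 442 and 438 CPM, with no overlap (log2 -0.35, SE 0.06, adjusted p = 2.35e-05). SRSF6 went from 574, 555 and 555 CPM to 432, 439.8 and 453 CPM, again without overlap (log2 -0.35, SE 0.06, adjusted p = 4.27e-05). SRSF6 fell by 21.4% and SRSF7 by 25.9% of the control level.

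SRSF4 was at 114, 109 and 115 CPM in Ctrl and at 100.2, 105 and 98.6 CPM in HS. All heated libraries were below the controls, but the change was small (log2 -0.15, SE 0.06, adjusted p = 0.0326). The call was lost without Ctrl scramble replicate 1 or 3 or without HS scramble replicate 1 or 3 (adjusted p up to 0.166), and also with no filter on low counts or with CPM above 1 required in all 18 libraries. SRSF11, a factor that interacts with U2 auxiliary factor, was the member that rose. It went from 138, 136 and 139 CPM to 184, 187 and 201 CPM, an increase of 38.4% without overlap (log2 0.47, SE 0.06, adjusted p = 2.11e-06).

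SRSF1, among the best known SR proteins and a general splicing activator, was at 525, 508 and 529.8 CPM in Ctrl and 497, 486 and 508 CPM in HS, and its log2 fold change of -0.07 did not pass the test (adjusted p = 0.3). SRSF3, another export adaptor, had 2 heated libraries at 519 and 505 CPM and 1 at 589 CPM, against 599.7, 607 and 580.5 CPM in Ctrl. The highest heated library of SRSF3 lay within the controls, and the log2 value of -0.15 missed the limit (adjusted p = 0.0636). It passed with DESeq2, with scaling by library size alone and without HS scramble replicate 3 (adjusted p = 0.015). SRSF5 (log2 -0.09, adjusted p = 0.186), SRSF9 (log2 -0.04, adjusted p = 0.608) and SRSF10 (log2 -0.05, adjusted p = 0.53) also did not pass. SRSF10 is the member best known as a splicing repressor that is activated by dephosphorylation in heat shock.

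In siLonp1 cells, HS lowered SRSF2, SRSF4, SRSF6 and SRSF7 and raised SRSF11. Here 22.1% of all genes fell and 20.2% rose. SRSF2 fell by 0.64 (log2, SE 0.06, adjusted p = 1.75e-09), from 678, 696 and 710.4 CPM to 466, 446 and 425 CPM. SRSF6 fell by 0.51 (adjusted p = 1.42e-07), from 678, 677 and 732 CPM to 499, 488 and 483 CPM. SRSF4 fell by 0.36 (adjusted p = 1.13e-05) and SRSF7 by 0.35 (adjusted p = 0.000114). SRSF11 rose by 0.67 (adjusted p = 5.43e-09), from 124, 135 and 134 CPM to 215, 204 and 206 CPM. The libraries did not overlap for 5 genes below and 2 above, where this held for 28% and 26.2% of all genes, and SRSF2 fell by 35.8%. The HS contrasts of the 2 arms use different libraries, and whether they differ is tested further on.

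**Figure D2:**
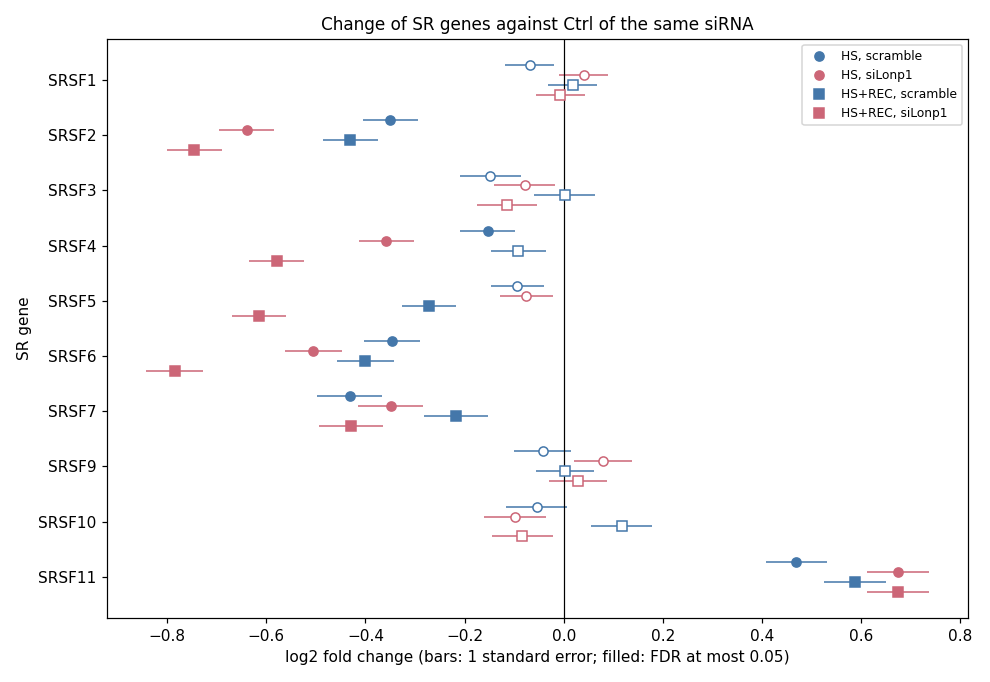
Log2 fold change of each SR gene against Ctrl of the same siRNA, for HS (circles) and HS+REC (squares) in scramble (blue) and siLonp1 (red), with bars of 1 standard error and filled marks at FDR of at most 0.05. SRSF11 lies to the right of 0 in all 4 contrasts, and SRSF2, SRSF4, SRSF5, SRSF6 and SRSF7 to the left in all 4. The marks of SRSF2, SRSF6, SRSF7 and SRSF11 are filled in all 4.

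The third question was what remained after 1 h at 37 °C, read against the same Ctrl libraries as the HS effect. In scramble cells, SRSF2, SRSF5, SRSF6 and SRSF7 were lower than in Ctrl and SRSF11 was higher. Among all genes 20.5% were lower and 21.8% higher. SRSF2 stood at 380, 412 and 421 CPM (log2 -0.43, SE 0.06, adjusted p = 9.36e-07) and SRSF6 at 427, 439 and 409.5 CPM (log2 -0.40, SE 0.06, adjusted p = 4.53e-06). All 3 recovered libraries of both genes were below all controls, and the share of all genes for which this held is not given here. SRSF7 was at 307, 300.5 and 304 CPM (log2 -0.22, adjusted p = 0.00892). SRSF5 was at 201, 199.7 and 185 CPM against 234.8, 234.6 and 237 CPM in Ctrl (log2 -0.27, SE 0.05, adjusted p = 0.000263). SRSF11 reached 197, 228 and 195 CPM (log2 0.59, adjusted p = 4.94e-08). SRSF3 and SRSF9 had log2 values of 0.00 after recovery, with adjusted p of 0.988 and 0.981.

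In siLonp1 cells 5 genes were lower after recovery and SRSF11 was higher, with 26.6% of all genes lower and 24.6% higher. SRSF6 changed most, at 368, 409.7 and 434 CPM, and fell by 42.0% (log2 -0.78, SE 0.06, adjusted p = 7.5e-11). SRSF2, at 404, 411 and 427 CPM, fell by 40.4% (log2 -0.75, adjusted p = 9.08e-11). SRSF5 was at 166, 157 and 157 CPM against 228, 251 and 256 CPM in Ctrl (log2 -0.62, adjusted p = 1.81e-09). SRSF4 was at 89.0, 84.5 and 86.4 CPM against 123, 138 and 128 CPM (log2 -0.58, adjusted p = 6.65e-09), its lowest level in any group. SRSF7 (log2 -0.43, adjusted p = 6.61e-06) completed the 5, and SRSF11 was higher (log2 0.67, adjusted p = 3.76e-09). The median over the 10 genes was -0.27, the lowest of the 4 heat contrasts, and that over all genes -0.00.

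The hour of recovery itself was read from HS+REC against HS. In scramble, SRSF7 and SRSF10 rose and SRSF5 fell, with 14.2% of all genes rising and 12.7% falling. The changes were small, at 0.21 for SRSF7 (adjusted p = 0.0158), 0.17 for SRSF10 (adjusted p = 0.0428) and -0.18 for SRSF5 (adjusted p = 0.0162). SRSF7 lost its call without HS scramble replicate 1 or 2 (adjusted p up to 0.0747), and SRSF5 without HS scramble replicate 2 or HS+REC scramble replicate 3 (adjusted p up to 0.0852). SRSF10 lost its call without any one library other than HS+REC scramble replicate 3 (adjusted p up to 0.248). It also lost the call under scaling by library size alone, with no filter on low counts, with replicate number as a block and with only these groups in the fit. SRSF7 lost its call under scaling by library size alone and SRSF5 with only these groups in the fit. Of the 3 calls, 1 was left without HS scramble replicate 1 and 0 without HS scramble replicate 2.

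In siLonp1, SRSF4, SRSF5 and SRSF6 were lower after recovery than after HS, where 15.6% of all genes fell and 16.3% rose. SRSF5 fell by 0.54 (log2, SE 0.05, adjusted p = 3.59e-08), from 236, 229.5 and 233 CPM in HS. SRSF6 fell by 0.28 (adjusted p = 0.000501) and SRSF4 by 0.22 (adjusted p = 0.0032). For these 3 genes all HS+REC libraries were below all HS libraries, as held for 20% of all genes, and all 3 calls were kept whichever library was left out. The SRSF11 value was 0.00 (adjusted p = 0.994), so its level after HS and after recovery differed by less than the spread between libraries.

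The effect of siLonp1 alone was compared in each condition. In Ctrl, SRSF2, SRSF3, SRSF4, SRSF6 and SRSF7 were higher with siLonp1, with 26.3% of all genes higher and 22.9% lower. SRSF2 changed from 558, 537 and 540.5 to 678, 696 and 710.4 CPM (log2 0.35, SE 0.06, adjusted p = 1.7e-05). SRSF7 changed from 363, 362 and 335 to 459.7, 437 and 446 CPM (log2 0.34, SE 0.06, adjusted p = 0.000153). SRSF6 (log2 0.31, adjusted p = 0.000112), SRSF3 (log2 0.26, adjusted p = 0.00148) and SRSF4 (log2 0.20, adjusted p = 0.00444) followed. The silenced libraries were above all scramble libraries for 7 genes, where this held for 33.6% of all genes. The sum over the 10 genes was 4004 ± 116 CPM against 3445 ± 43.2 CPM. The SRSF4 call was lost under scaling by library size alone.

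After HS, SRSF1, SRSF3, SRSF6 and SRSF7 were higher with siLonp1, with 28.1% of all genes higher and 26.7% lower. SRSF7 was at 383, 329 and 341 CPM against 255, 253 and 279 CPM (log2 0.42, SE 0.07, adjusted p = 1.03e-05). SRSF3 was at 712, 652 and 656 CPM against 519, 505 and 589 CPM (log2 0.32, adjusted p = 0.000117). SRSF1 was at 569, 564 and 567 CPM against 497, 486 and 508 CPM (log2 0.19, adjusted p = 0.00252). SRSF6 had a log2 value of 0.15 (adjusted p = 0.0302), a call that was lost when replicate 1 or 2 of HS scramble, or replicate 1 or 2 of HS siLonp1, was left out (adjusted p up to 0.099). Scaling by library size alone left 2 of the 4 calls, those of SRSF3 and SRSF7. SRSF2, raised in Ctrl, had a log2 value of 0.06 after HS (adjusted p = 0.367).

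After recovery, SRSF4 and SRSF5 were lower with siLonp1, with 27.3% of all genes lower and 26.8% higher. SRSF4 was at 89.0, 84.5 and 86.4 CPM against 109, 105 and 103 CPM (log2 -0.29, SE 0.06, adjusted p = 0.00014), and SRSF5 was at 166, 157 and 157 CPM against 201, 199.7 and 185 CPM (log2 -0.29, SE 0.05, adjusted p = 0.000125). The libraries of the 2 arms did not overlap for either gene, and the share of all genes for which this held is not given here. SRSF3 had a log2 value of 0.14 and did not pass (adjusted p = 0.0597), but passed with RLE size factors, with DESeq2 and without HS+REC scramble replicate 2 (adjusted p = 0.0348). Scaling by library size alone gave 4 lower genes, SRSF6 and SRSF10 being added. The sum over the 10 genes was 3198 ± 59.4 CPM with siLonp1 and 3168 ± 84.9 CPM with scramble, a difference smaller than either SD.

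**Figure D3:**
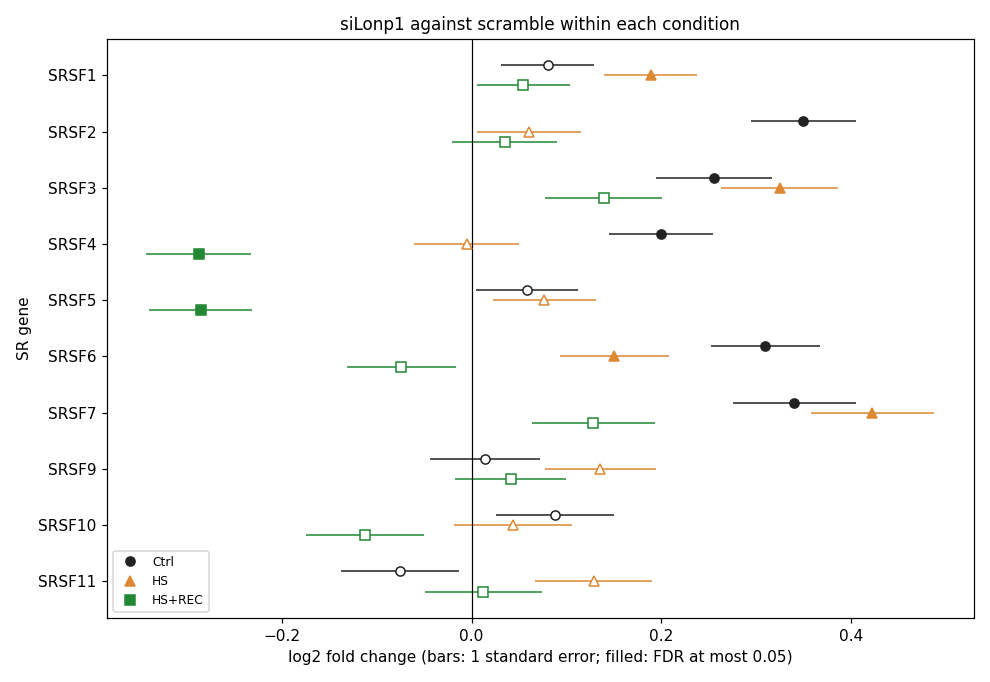
Log2 fold change of each SR gene by siLonp1 against scramble in Ctrl, HS and HS+REC, with bars of 1 standard error and filled marks at FDR of at most 0.05. Filled marks above 0 are SRSF2, SRSF3, SRSF4, SRSF6 and SRSF7 in Ctrl, and SRSF1, SRSF3, SRSF6 and SRSF7 in HS. Filled marks below 0 are SRSF4 and SRSF5 in HS+REC.

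Whether the heat effects differed between the arms was tested as an interaction. For recovery against Ctrl, 4 of the 10 genes had a lower heat effect in siLonp1 than in scramble, whereas this held for 0.896% of all genes tested. SRSF4 differed by -0.49 (log2, SE 0.08, adjusted p = 0.00261), with changes of -0.09 in scramble and -0.58 in siLonp1. SRSF6 differed by -0.38 (SE 0.08, adjusted p = 0.0147), with changes of -0.40 and -0.78. Both calls were kept whichever of the 12 libraries was left out. SRSF5 differed by -0.34 (adjusted p = 0.0203), with changes of -0.27 and -0.62, and lost its call without any of the 3 Ctrl scramble libraries, Ctrl siLonp1 replicate 2 or 3, or HS+REC scramble replicate 1 (adjusted p up to 0.0642). SRSF2 differed by -0.31 (adjusted p = 0.0392) and lost its call in 10 of the 12 fits that left out 1 library, all but those without HS+REC scramble replicate 1 or HS+REC siLonp1 replicate 3 (adjusted p up to 0.107). It also lost the call with RLE size factors, with replicate number as a block and with only the groups compared in the fit. The count was 2 without Ctrl scramble replicate 1, 2 or 3 or Ctrl siLonp1 replicate 2 or 3. The Ctrl libraries of this contrast are also those of the siLonp1 effect in Ctrl, in which SRSF2, SRSF4 and SRSF6 were higher. Within HS+REC, siLonp1 against scramble did not pass edgeR's quasi-likelihood test for SRSF2 (log2 0.03, adjusted p = 0.616) or SRSF6 (log2 -0.07, adjusted p = 0.284).

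For HS, edgeR's quasi-likelihood test called 0 of the 10 interactions, with 1.87% of all genes called in either direction. At an unadjusted p under 0.05, 3 of the 10 passed, as did 1951 of the 12832 genes tested. SRSF2 was nearest the limit at -0.29 (SE 0.08, adjusted p = 0.0556), and it was called by DESeq2 and by edgeR's likelihood ratio test, which each called 1 gene. The HS effects in the 2 arms are thus not shown to differ for SRSF4 (-0.20, adjusted p = 0.199), SRSF6 (-0.16, adjusted p = 0.358) or SRSF11 (0.20, adjusted p = 0.264).

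Over the 6 groups, the members differed in how far they moved. The range of group means on the log2 scale was 0.79 for SRSF6, 0.78 for SRSF2 and 0.77 for SRSF7, and 0.19, 0.17 and 0.14 for SRSF1, SRSF10 and SRSF9. The median range was 0.60 over the members and 0.56 over all genes tested. Likeness of pattern was measured as the root mean square difference of centred group means over the 6 groups. The closest pair among the members was SRSF1 with SRSF9 at 0.03, both nearly flat, and among those that moved SRSF2 with SRSF6 at 0.06. Among all genes, the patterns nearest to SRSF6 were those of SOGA1 (0.03), TOM1L2 (0.04) and RHOG (0.05). Those nearest to SRSF2 were LOC100288842 (0.04), TOM1L2 (0.04) and CRTC1 (0.04), and those nearest to SRSF7 were ARL6IP1, MTFR1L and SPTSSA (0.06 each).

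The other genes of the pathway were taken from lists. The kinases CLK1 and CLK4, which phosphorylate SR proteins in the nucleus, rose far more than any SR gene. CLK1 went from 28.4 ± 0.858 CPM in Ctrl scramble to 163 ± 7.17 CPM in HS scramble (log2 2.52, SE 0.12, adjusted p = 2.66e-14), and CLK4 from 5.45 ± 0.509 to 21.8 ± 1.11 CPM (log2 1.999, SE 0.09, adjusted p = 5.06e-14). After recovery in scramble they stood at 104 ± 16.2 and 20.4 ± 1.72 CPM. CLK3 went from 21.4 ± 0.445 CPM in Ctrl scramble to 47.2 ± 1.06 CPM in HS scramble, and CLK2 from 28.9 ± 1.97 to 30.4 ± 2.42 CPM. SRPK1, the cytoplasmic kinase, went from 140.3 ± 1.31 to 128 ± 6.87 CPM and did not pass the test (log2 -0.13, adjusted p = 0.106). Of the 14 kinases, phosphatase subunits and transport factors, 4 rose and 2 fell in HS scramble, where 18.6% of all genes rose and 17.3% fell. The 2 were PPP1R8 (log2 -0.48) and PPP1CB (log2 -0.19).

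Of the 30 other RS-domain and SR-related proteins tested, 10 rose and 2 fell after HS in scramble, and 12 rose and 2 fell after recovery. Beside these and the list counts that follow, 18.6% of all genes rose and 17.3% fell after HS, and 21.8% rose and 20.5% fell after recovery, and no list was tested against these shares. RSRP1 (log2 2.30) and RSRC2 (log2 1.26) rose most after HS, and THRAP3 (log2 -0.37) and SRSF8 (log2 -0.32) were the 2 that fell. After recovery LUC7L (log2 1.08) and RSRC2 (log2 1.61) were highest, and THRAP3 (log2 -0.61) and BCLAF1 (log2 -0.26) fell. TRA2A and TRA2B, close relatives that also bind exonic enhancers, rose by 0.27 and 0.34 after HS. The median log2 fold change of this list after HS was 0.05, against -0.12 for the 10 SR genes, as a description. Of 24 hnRNP proteins, 4 rose and 5 fell after HS. PTBP2 at 0.82 and HNRNPH2 at 0.87 were highest, and PTBP3 at -0.33 and HNRNPDL at -0.26 lowest. HNRNPH2 lay near the 1 CPM limit of the filter, and its value is less certain (SE 0.22, against 0.09 for PTBP2). Its mean over the scramble libraries was 0.82 CPM for Ctrl and 1.48 CPM for HS. After recovery 5 hnRNP genes rose and 7 fell, among them PTBP2 (0.74), HNRNPH3 (0.29), HNRNPUL1 (-0.28) and SYNCRIP (-0.28). Of 15 proteins of the U1 and U2 snRNPs, 3 rose and 1 fell after HS, with SF3B1 and SF3A2 at 0.28 each and SF3A3 at -0.17, and 4 rose and 1 fell after recovery (SF3B1 0.47, SF3B6 0.23, SF1 -0.20). Of 10 factors of nonsense-mediated decay, SMG8 alone passed after HS (log2 0.94), and SMG8 (log2 1.12) and UPF3B (log2 0.17) rose after recovery.

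In siLonp1 cells, 11 RS-domain genes rose and 5 fell after HS, as did 6 and 4 kinases and partners, 5 and 8 hnRNP genes, 3 and 2 snRNP genes and 3 and 4 decay factors, with 20.2% of all genes rising and 22.1% falling. After recovery in siLonp1, 14 RS-domain genes rose and 4 fell, with 7 and 3, 7 and 6, 5 and 1, and 1 and 5 in the other lists in that order, beside 24.6% and 26.6% of all genes. In Ctrl, siLonp1 raised 6 RS-domain genes and lowered 7, raised 7 kinases and partners and lowered 3, raised 8 hnRNP genes and lowered 2, raised 2 snRNP genes and lowered 3, and lowered 2 decay factors, where it raised 26.3% and lowered 22.9% of all genes. After HS, siLonp1 raised 7 RS-domain genes and lowered 6, with 8 and 2, 8 and 4, 4 and 5, and 2 and 4 in the other lists in the same order, beside 28.1% and 26.7% of all genes. After recovery it raised 6 RS-domain genes and lowered 7, with 7 and 3, 9 and 2, 2 and 4, and 1 and 7, beside 26.8% and 27.3% of all genes.

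**Figure D4:**
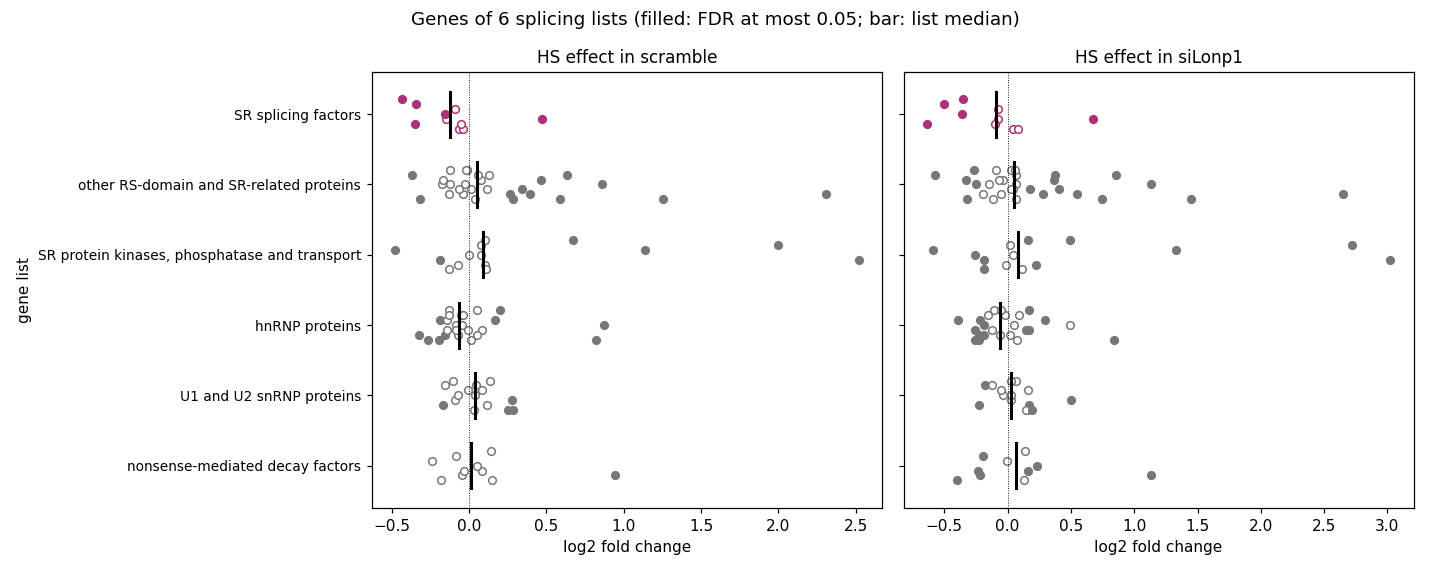
Log2 fold change after HS in scramble (left) and in siLonp1 (right) for the genes of each list, 1 point a gene, filled at FDR of at most 0.05, with the median of the list as a bar. In scramble, the SR splicing factors centre at -0.12 and the other RS-domain proteins at 0.05, with RSRP1 at 2.30 and CLK1 at 2.52 among the highest points.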

How the data were processed

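The deposited values are raw counts of reads per gene symbol for 18 libraries, which the authors made from paired-end reads of a stranded mRNA library with STAR 2.7.3a on hg38 and featureCounts in R 3.6.3 on UCSC annotated genes, per the labels and the study's methods. The strand setting, the handling of reads shared by several genes and the annotation release are not given in the sources used here, nor is which Lonp1 siRNA was sequenced. The methods state independent biological replicates. Every column was mapped by its name.

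The filter kept 12832 genes whose CPM exceeded 1 in 3 or more libraries (with at least 99.9% of each library's counts) and scaled by TMM factors of 0.934 to 1.06. One model with a mean for each of the 6 groups was tested with edgeR 4.0.16 in R 4.3.3 (quasi-likelihood test, prior count 0.125, common biological coefficient of variation 0.0658). Benjamini-Hochberg adjustment ran over all genes tested, and a gene was called at FDR of at most 0.05 at any fold. The study's 2-fold limit is given beside it. CPM are TMM-scaled, except those of the filter and of the cell type markers, which are scaled by the library total alone. The standard error is the size of the log2 fold change over the square root of F. Totals differed by less than 2-fold between libraries. DESeq2 1.42.0 was an alternative.

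Members and gene lists were chosen with earlier results of these data known. Named genes were the members, LONP1, the heat shock genes, CLK1, CLK4, SRPK1, TRA2A, TRA2B, for each list the 2 called genes that rose and the 2 that fell most in HS and in HS+REC of scramble, and the 3 genes most like each of the 3 members with the widest range. Replicates of a group differed beyond counting error (chi-square per degree of freedom 3.48 to 25.8). Protein sequences were not used here. Gene positions are from GENCODE 44 and promoters from RefSeq.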

Additional observations from a re-analysis of the deposited data

Results flagged for a closer look

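The effect of HS+REC against Ctrl differed between the siRNA arms, by the interaction term, for 4 SR genes: SRSF4 (-0.49 on the log2 scale), SRSF6 (-0.38), SRSF5 (-0.34) and SRSF2 (-0.31). In each the change in siLonp1 was the lower, as was called for 0.896% of all genes tested. The level after recovery was called lower with siLonp1 for SRSF4 and SRSF5, and not for SRSF2 or SRSF6. SRSF4 and SRSF6 kept the interaction call in all 12 fits that each left out 1 library. SRSF5 lost it in 6 of the 12, and SRSF2 in 10 of the 12 and under RLE size factors, the replicate block and the fit of only the groups compared. The effect of HS differed between the arms for CLK4 (0.72, standard error 0.14, adjusted p = 0.00649), with a larger rise in siLonp1, at 3.77 ± 0.309 CPM in Ctrl and 24.9 ± 1.87 CPM in HS (SD, n = 3). LONP1 itself differed between the arms for HS (-0.76, standard error 0.11, adjusted p = 0.000468) and for HS+REC (0.43, standard error 0.10, adjusted p = 0.0321), so the depth of the silencing was not the same in the 3 conditions.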

How the results depend on the processing

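Counts of SR genes called stayed within 1.5 times under RLE size factors, with no filter on low counts and with CPM above 1 in all 18 libraries, and no log2 fold change of a called member changed sign under any alternative. Scaling by library size only gave 1 call for HS+REC against HS in scramble, 2 for the siLonp1 effect in HS, 4 for that in HS+REC and 1 for the interaction with HS. That interaction also gave 1 call with the likelihood ratio test, with only the groups compared and with DESeq2, each time SRSF2. With only the groups compared, HS+REC against HS in scramble gave 1 call. At FDR 0.01 it gave 0 and the interaction with HS+REC 1. With the added 2-fold limit, 0 SR genes were called in each of the 11 contrasts. Over the fits that each left out 1 library, the counts ranged over 4 to 5 (HS effect in scramble), 5 to 5 (in siLonp1), 5 to 6 and 6 to 6 (HS+REC effects), 0 to 3 and 3 to 3 (HS+REC against HS), 5 to 5, 3 to 5 and 2 to 3 (siLonp1 effect in Ctrl, HS and HS+REC), and 0 to 0 and 2 to 4 (interactions with HS and HS+REC). Members not called in the report passed 24 times over these fits. Outside the fits without 1 library these were, with library size only, SRSF3 (HS in scramble and HS+REC in siLonp1), SRSF4 (HS+REC in scramble), SRSF10 (HS+REC in siLonp1), SRSF11 (lower with siLonp1 in Ctrl) and SRSF6 and SRSF10 (lower with siLonp1 in HS+REC), with DESeq2 SRSF3 (HS in scramble, siLonp1 in HS+REC) and SRSF9 (siLonp1 in HS), with RLE SRSF3 (siLonp1 in HS+REC), with only the groups compared SRSF9 (siLonp1 in HS), and SRSF2 as above. Without 1 library they were SRSF3 (HS in scramble, HS+REC against HS in scramble, siLonp1 in HS+REC), SRSF7 and SRSF10 (siLonp1 in HS+REC), SRSF10 (HS+REC in scramble) and SRSF11 (siLonp1 in HS). The cause of these shifts was not tested.

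No pairing by replicate number was seen over all groups, although this check cannot exclude batches shared by some libraries. Deviations of same-numbered libraries had correlations of -0.38 to 0.46, with a median of -0.02, and 10 of 45 above 0.1. A library's best match carried its own number in 28 of 90 cases. With the replicate block, the counts were 5, 5, 5 and 6 for the heat contrasts, 2 and 3 for HS+REC against HS, 5, 4 and 2 for siLonp1, and 0 and 3 for the interactions, and the SRSF2 interaction with HS+REC and SRSF10 in HS+REC against HS in scramble lost their calls. With 3 libraries a group, changes of the size of the SRSF4 fall after HS lie at the edge of what passes.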
